A study of Drosophila melanogaster with 3 samples.

Results

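Of 2670 distinct small RNA sequences that matched the retroelement Penelope, 87 were listed in all 3 of the Drosophila melanogaster strains A1a, A2d and A2h. They were chosen by measured values, namely at least 1 read of the identical sequence in each strain's list, with each sequence counted once per list. Another 400 sequences were listed in exactly 2 strains and 2183 in only 1, of which 559 were in A1a, 1341 in A2d and 283 in A2h. Each strain was its own group with 1 library of ovarian small RNAs. The flies were 3 to 5 days old and kept at 25 degrees, and the RNAs were cut from a gel at 23 to 29 nt. Northern blots had detected Penelope piRNAs in these strains, per the series' description, and the labels give no genotype, insertion site or agent beyond the strain name. With 1 library each, strains were not tested against each other, and total small RNA depth is not known here, so percentages are of the reads listed for Penelope. Sequences that overlap or share an end are not independent either, so each share carries an exact 95% binomial interval (Clopper-Pearson) in place of a p-value. The intervals cover counting error only, since PCR copies of a molecule carry no identifier.

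Piwi proteins of the gonad carry piRNAs, short RNAs whose sequence selects the transposon transcripts to be silenced. Antisense piRNAs pair with the element's transcript, and in the fly most of them begin with U, written T in the lists. Where an antisense piRNA directs the cutting of a sense transcript, the new sense piRNA starts opposite its base 10, so the partners overlap by 10 nt and the sense one tends to carry A at base 10. Other piRNAs are made one after the other along a precursor that the nuclease Zucchini cuts, and then the base after the 3′ end is often U. The retroelement Penelope was described in Drosophila virilis, where certain crosses mobilise it in hybrid dysgenesis.

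The best supported shared sequences were the 7 with 5 or more reads in every list, and they are shown because their presence in every strain rests on the most reads. All 7 were antisense. Positions count from 1 on the authors' Penelope sequence, and capitals mark base 1 and base 10 of each RNA.
antisense 1410 to 1437: TccactgtgTccagtattgctcgatccc
antisense 57 to 82 and 2838 to 2863: TgtacctatGtagacactattgcact
antisense 1734 to 1759: TattggtctCagtggagttccttcct
antisense 1238 to 1265: TgctgattgGgagagcgaacttcggccc
antisense 1469 to 1493: TatccgacgAtagaattttaatatt
antisense 1245 to 1270: TctcttgctGattgggagagcgaact
antisense 1239 to 1265: TgctgattgGgagagcgaacttcggcc

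The first of these, at 1410 to 1437 in the reading frame, was read 13 times in A1a, 25 times in A2d and 18 times in A2h, that is 0.732%, 0.646% and 2.41% of the listed reads. The one in the repeats at 57 to 82 had 14, 20 and 11 reads, and the one at 1734 to 1759 had 19, 37 and 5. The first was the most abundant shared sequence in A2h, whereas none of the 7 led in A1a or A2d. The sequence at 1238 to 1265 was read 6 times in A1a, 7 times in A2d and 16 times in A2h, and the one at 1469 to 1493 had 7, 5 and 8. The sequence at 1245 to 1270 had 5, 5 and 8 reads, and the one at 1239 to 1265 had 8, 6 and 5. All 7 began with T, and 1 of the 7 had A at base 10.

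Most of the common set was seen at low depth. With a minimum of 2 reads in every list 30 of the 87 were left, and with a minimum of 3 reads 17. The median count of a shared sequence was 2 in A1a, 3 in A2d and 1 in A2h, and 12 of the 87 had 1 read in all 3 lists. Just inside the rule lay sequences such as the antisense one at 491 to 515, with a count of 42 in A1a, of 37 in A2d but of 1 in A2h. Just outside it lay the abundant sequences of A1a and A2d that A2h did not list. The 3 with the highest mean percentage were these.
sense 567 to 592 and 3348 to 3373: TgttttaacAaacacggacctcgagc
antisense 491 to 519 and 3272 to 3300: TgcacatcgGcaaaccgtcttcagggcac
sense 1128 to 1151: TacgagatcAacggaacctagcct
In the order shown, A1a held 40, 32 and 20 reads of them and A2d held 24, 12 and 32. A count of 0 among the 748 reads of A2h has an exact 95% upper limit of 0.492%, and 3 counts would be 0.401%. The last of them is 1 base shorter at its 3′ end than a shared sequence with 1 read in A2h, so membership there rested on 1 read.

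By number of sequences, the common set made up 8.97% of the A1a list, 4.83% of the A2d list and 18.4% of the A2h list. By reads, A1a had 321 of 1777 in the common set (18.1%, interval 16.3 to 19.9%), A2d had 793 of 3870 (20.5%, 19.2 to 21.8%) and A2h had 270 of 748 (36.1%, 32.7 to 39.7%). The rule puts the same 87 sequences in every list, so the shortest and shallowest list, that of A2h, tends to hold the largest share of them, and no difference between strains is read from it. A shared sequence averaged 3.69 reads for A1a, 9.12 for A2d and 3.10 for A2h, against 1.65, 1.80 and 1.24 reads for the other sequences of the same lists. That difference follows from the rule, since an abundant sequence is more easily listed everywhere: of those with 5 or more reads, the shared ones were 30.2% for A1a, 25.2% for A2d and 90.0% (18 of 20) for A2h, against 4.84%, 2.01% and 11.8% at 1 read.

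The common set was antisense to the element in 79 of 87 sequences, or 90.8% (82.7 to 96.0%). Of the sequences listed in only 1 strain, those of A1a were antisense in 56.7% (52.5 to 60.9%), those of A2d in 56.2% (53.5 to 58.9%) and those of A2h in 90.5% (86.4 to 93.6%). The strand balance of the shared sequences was therefore close to that of the sequences found in A2h alone and apart from those of A1a and A2d. Since the rule takes members only from the A2h list, which was 91.1% antisense as a whole (88.2 to 93.5%), the balance of the common set and that of A2h cannot be told apart. The 296 sequences listed in A1a and A2d but not in A2h were antisense in 44.3% (38.5 to 50.1%). Within sequences with 1 read in A1a, the shared ones were antisense in 91.4% (76.9 to 98.2%) and those of A1a alone in 57.9% (53.4 to 62.3%). Equal read count in A1a or A2d does not lift that limit, since the shared sequences still come from the A2h list. For 1 read in A2d the shares were 96.2% (80.4 to 99.9%) among shared sequences and 56.5% (53.6 to 59.5%) among those of A2d alone. For 1 read in A2h they were 86.4% (72.7 to 94.8%) among shared sequences and 89.8% (85.4 to 93.2%) among those of A2h alone, with overlapping intervals.

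Position along the element also placed the common set nearer to A2h, to which the same limit applies. Of the 79 antisense shared sequences, 10 matched both terminal repeats, at positions 3 to 618 and 2784 to 3399. A further 67 lay wholly in the reading frame at 617 to 3190, and 2 crossed from the left repeat into the frame. Of all 87 shared sequences the repeats held 13 (14.9%, 8.20 to 24.2%). They held 12.7% (6.24 to 22.1%) of the antisense shared sequences, against 27.8% (22.9 to 33.0%) of the antisense sequences of A1a alone, 35.1% (31.7 to 38.7%) of A2d alone and 8.59% (5.46 to 12.7%) of A2h alone. Positions 1201 to 1500 of the frame held 34 of the 79 (43.0%, 31.9 to 54.7%). Of the antisense sequences listed in 1 strain, A1a had 15.5% there (11.7 to 19.9%), A2d had 11.4% (9.23 to 13.9%) and A2h had 32.0% (26.4 to 38.1%). The interval of the shared sequences overlapped that of A2h and lay above those of A1a and A2d.

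Overlapping shared sequences of 1 strand formed 24 antisense blocks and 5 sense blocks along the element, and 9 of the antisense blocks held 1 sequence. The antisense blocks with the most members were at 1237 to 1270, with 11 sequences, at 1396 to 1448, with 9, and at 587 to 622 and 1464 to 1499, with 7 each. The block at 1237 to 1270 held 35 reads in A1a and 51 each in A2d and A2h, or 1.97% (1.38 to 2.73%), 1.32% (0.983 to 1.73%) and 6.82% (5.12 to 8.87%) of the reads. The block at 1396 to 1448 held 28, 56 and 53 reads, or 1.58% (1.05 to 2.27%), 1.45% (1.10 to 1.88%) and 7.09% (5.35 to 9.17%). Both blocks were relatively highest in A2h, with intervals clear of A1a and A2d. The block at 587 to 622, at the end of the left repeat, held 19, 278 and 20 reads, or 1.07% (0.645 to 1.67%), 7.18% (6.39 to 8.04%) and 2.67% (1.64 to 4.10%), and stood highest in A2d.

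By the rule all 87 sequences were in every list, and their shares of the common set's reads differed between the 3 libraries. With 1 library per strain, these are values of the libraries and no test between strains. Among the reads of the common set, the 34 sequences at 1201 to 1500 accounted for 30.5% in A1a (25.5 to 35.9%), while A2d had 18.9% (16.3 to 21.8%) and A2h had 53.3% (47.2 to 59.4%). The 10 antisense sequences of the repeats accounted for 28.7% (23.8 to 33.9%), 44.6% (41.1 to 48.2%) and 12.6% (8.88 to 17.2%). The intervals of the 3 lists did not overlap for either group, and the order of the lists was opposite between the groups. Both groups are parts of the same total, so their orders are not independent. In A2d, 242 of the 354 reads of the repeat group came from 4 overlapping sequences that ended at 589. A1a had 14 of 92 there and A2h had 13 of 34, so the high share in A2d rested mostly on that end. The 17 antisense sequences between 1501 and 2100 differed less, at 15.0% (11.2 to 19.3%), 8.58% (6.72 to 10.7%) and 13.3% (9.52 to 18.0%).

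Across the 87 sequences Spearman's rho of the read counts was 0.64 between A1a and A2d, 0.42 between A1a and A2h and 0.39 between A2d and A2h. These describe sequences that share positions and 57 of them had 1 read in at least 1 list. Within the 34 sequences at 1201 to 1500 rho was 0.68, 0.75 and 0.67. Within the 13 sequences of the repeats it was 0.647 between A1a and A2d, 0.155 between A1a and A2h and 0.405 between A2d and A2h.

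Few sequences had a 95% interval in 1 list that lay apart from those of both other lists. Differences between only 2 of the lists were not counted. Of the 87, 57 had 1 read in at least 1 list, where an interval is wide for its value. The count therefore does not show that the other sequences were alike between lists. The 95% interval of the percentage in A2h lay above those of both others for 6 of the 87, against 0.225% of all 2670 sequences, that in A2d for 3, against 0.15%, and that in A1a for 1, against 0.15%. The A2h interval lay below both others for 1, against 0.0749%. The rule itself requires reads in every list, so nothing can be read from these shares against the background. These percentages are also of all listed reads, of which the common set held most in A2h. No difference between strains is therefore read from the 6. The 1 that was lower in A2h was a sense sequence, and few A2h reads were sense, so none is read from it either. The 6 that were higher in A2h were those at 1410 to 1437 and 1238 to 1265, given above, and these 4.
antisense 1396 to 1420: TgctcgatcCctactgttttggttg
antisense 1398 to 1423: TattgctcgAtccctactgttttggt
antisense 1245 to 1268: TcttgctgaTtgggagagcgaact
antisense 1133 to 1158: TccgctaagGctaggttccgttgatc
In the order shown, A1a held 4, 2, 4 and 1 reads of them, A2d held 9, 10, 8 and 8, and A2h held 11, 11, 10 and 10. All 6 were antisense, began with T and lay between 1133 and 1437 in the reading frame. The 1 that was higher in A1a was the antisense repeat sequence at 491 to 515, CatcggcaaAccgtcttcagggcac, with 2.36% of the reads in A1a (1.71 to 3.18%), against 0.956% in A2d (0.674 to 1.32%) and 0.134% in A2h (0.00339 to 0.743%).

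The 3 that were higher in A2d belong to a group of 4 antisense sequences in the repeats that ended at the same 3′ base, position 589 and its copy at 3370, and differed by 1 base each at the 5′ end. They are shown to make the shared end visible.
antisense 589 to 616: AtttcaataTttatttgttggctggctc
antisense 589 to 615: TttcaatatTtatttgttggctggctc
antisense 589 to 614: TtcaatattTatttgttggctggctc
antisense 589 to 613: TcaatatttAtttgttggctggctc
From the longest to the shortest they had 1, 3, 3 and 7 reads in A1a, 2, 102, 73 and 65 in A2d, and 1, 7, 4 and 1 in A2h. The forms that began with T were thus the frequent ones in A2d, and the form that began with A was rare in all 3 lists. The longest had the lowest count or shared it in every list, whereas the most frequent form was the shortest in A1a and the 27 nt one in A2d and A2h. In the right repeat 3 of these forms match with the substitution T3395A, written for the sense strand with the authors' base first, and in the left repeat all 4 match exactly.

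At 1265 the pattern was the reverse: 4 antisense shared sequences had the same 5′ base and differed by 1 base each at the 3′ end.
antisense 1237 to 1265: TgctgattgGgagagcgaacttcggccct
antisense 1238 to 1265: TgctgattgGgagagcgaacttcggccc
antisense 1239 to 1265: TgctgattgGgagagcgaacttcggcc
antisense 1240 to 1265: TgctgattgGgagagcgaacttcggc
From the longest to the shortest they had 2, 6, 8 and 2 reads in A1a, 5, 7, 6 and 4 in A2d, and 3, 16, 5 and 3 in A2h. Of the reads with that 5′ end, the 4 forms held 18 of 21 in A1a, while A2d had 22 of 28 and A2h had 27 of 30. The length that led was 27 nt in A1a and 28 nt in A2d and A2h, by margins of 1 or 2 reads in A1a and A2d.

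Over the whole common set there were 69 distinct 5′ ends and 69 distinct 3′ ends. At 11 of the 5′ ends 2 or more shared sequences started, 29 sequences in all, and at 14 of the 3′ ends 2 or more ended, 32 sequences in all. The shared sequences made up 60.5% of the reads that began at their 5′ ends in A1a, 62.0% in A2d and 73.6% in A2h. Counting 5′ ends in place of identical sequences gave 126 that were used in all 3 lists, so at 57 of them the strains shared the start of the RNA but no full sequence.

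Shared sequences were 25.8 ± 1.45 nt long (SD over 87 sequences), and 28 of them had 25 nt and 20 had 26 nt. The sequences listed in 1 strain averaged 25.9 ± 1.70 nt (SD over 2183). Lengths of 24 to 26 nt made up 67.8% (56.9 to 77.4%) of the shared sequences, against 58.5% (56.4 to 60.5%) of those listed in 1 strain, and the intervals overlapped. No shared sequence was 30 nt long, against 38 of those listed in 1 strain.

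Counted by sequence, T at base 1 had a higher share in the common set than among sequences of 1 strain. It was found in 75 of all 87 shared sequences (86.2%, 77.2 to 92.7%) and in 69 of the 79 antisense shared sequences (87.3%, 78.0 to 93.8%). Antisense sequences of A1a alone had it in 68.1% (62.7 to 73.2%), of A2d alone in 72.1% (68.8 to 75.3%) and of A2h alone in 68.0% (61.9 to 73.6%), with none of these intervals reaching that of the shared sequences. Sequences with the same 5′ end repeat the same base 1, however, and 29 of the 87 lay at 11 such ends, so the separation is overstated. Whether the intervals would stay apart with each antisense 5′ end counted once was not tested. Counting each 5′ end used in all 3 lists once, on both strands, gave T at 79.4% of 126 ends. That is another set, since 57 of these ends had no shared sequence, and no value per end was computed for sequences of 1 strain. At the other positions, leaving out bases 1 and 10, T made up 35.0% of the antisense shared sequences and 38.6% of the antisense sequences of 1 strain. Among antisense sequences with 1 read in A1a, T came first in 90.6% (75.0 to 98.0%) of the shared ones and 67.6% (61.9 to 72.9%) of those of A1a alone. With 1 read in A2h it was 78.9% (62.7 to 90.5%) against 66.7% (60.1 to 72.7%), and these intervals overlapped. With 2 to 4 reads in A2d the order was turned round, 70.4% (49.8 to 86.3%) of 27 shared sequences against 75.0% (66.3 to 82.5%) of 120 others.

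A at base 10 was about as frequent in both sets of antisense sequences. It was found in 24.1% (15.1 to 35.0%) of them and in 22.9% (20.7 to 25.3%) of the antisense sequences of 1 strain, beside 20.2% A at the other positions in both sets. The interval of the antisense shared sequences contained that of the antisense sequences of 1 strain. Over both strands, 24 of the 87 shared sequences had it (27.6%, 18.5 to 38.2%).

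The base that follows the 3′ end on the element was T, read on the antisense strand, for 58 of the 79 antisense shared sequences (73.4%, 62.3 to 82.7%). At the next 9 positions downstream the share was between 39.2% and 57.0%. For antisense sequences of 1 strain T followed in 54.7% (52.0 to 57.4%), against 37.6% to 44.9% at the next 9 positions. With each 3′ end counted once, the shares were 77.0% (64.5 to 86.9%) of 61 ends and 53.0% (49.3 to 56.7%) of 724 ends. By strain and read count the gap varied. With 1 read in A2d the shares were 84.0% (63.9 to 95.5%) for shared sequences and 52.7% (48.7 to 56.7%) for those of A2d alone. With 1 read in A2h they were 76.3% (59.8 to 88.6%) for shared sequences and 64.3% (57.7 to 70.6%) for those of A2h alone, with overlapping intervals. With 2 to 4 reads in A2h they were 56.5% (34.5 to 76.8%) and 71.4% (51.3 to 86.8%). The common set also ended in C in 36.7% and in A in 6.33% of antisense sequences, against 26.8% and 16.0% of those of 1 strain. No intervals were computed for these shares. Sequences with the same 3′ end repeat the last base, and 32 of the 87 lay at 14 such ends, so no difference is read from them.

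Partners whose first 10 nt overlap were counted for each shared sequence among all opposite-strand sequences of a list. Of the 79 antisense shared sequences, 7 had such a partner in A1a (8.86%, 3.64 to 17.4%), while A2d gave 20 (25.3%, 16.2 to 36.4%) and A2h gave 0 (0%, up to 4.56%). Over the other overlaps of 1 to 20 nt, A1a averaged 8.95 sequences with a partner, A2d 11.1 and A2h 0.263, with highest values of 15, 21 and 1. The 10 nt overlap was thus above the mean in A2d but not the most frequent, and in A1a it did not exceed the mean. Shared sequences with the same 5′ end counted the same partners, as did the 3 each at 1222, 1491 and 2221 in A2d. The 20 are therefore not 20 separate pairs, and the interval does not allow for this. Antisense sequences of 1 strain had a 10 nt partner in 51 of 317 cases in A1a, with 33.9 as the mean and 51 as the highest value of the other overlaps, and in 184 of 754 in A2d, with a mean of 119 and a highest value of 141. In A2h they had one in 1 of 256. No shared sequence had its partner within the common set. The best supported pair joined the antisense sequence at 1398 to 1423 to a sense sequence of A1a and A2d that A2h did not list.
antisense 1398 to 1423: TattgctcgAtccctactgttttggt
sense 1414 to 1442: TcgagcaatActggacacagtggaacaga
The sense partner had 3 reads in A1a and 19 in A2d, beside 2 and 10 reads of the antisense sequence. In A2h the antisense sequence had 11 reads and no partner.

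All 8 sense members are printed because they are the sense sequences that the strains had in common.
sense 1128 to 1152: TacgagatcAacggaacctagcctt
sense 2398 to 2422: AcccatagcCtccggacgaatactc
sense 2604 to 2628: TcgaaagaaAaaagccaacagaacc
sense 572 to 597 and 3353 to 3378: TaacaaacaCggacctcgagccagcc
sense 1123 to 1150: TaagttacgAgatcaacggaacctagcc
sense 1123 to 1149: TaagttacgAgatcaacggaacctagc
sense 565 to 587 and 3346 to 3368: TttgttttaAcaaacacggacct
sense 327 to 351 and 3107 to 3131: AattgcgctCacttgtacagacacc
The first was read 28 times in A1a, 64 times in A2d and 1 time in A2h. Its A2h interval (0.00339 to 0.743%) lay below those of the other lists. That percentage is of all listed reads, and only 45 of the 748 A2h reads were sense. Counted among sense reads, the A2h list held it in 1 of 45, beside 28 of 762 for A1a and 64 of 1523 for A2d. No lower share within the sense strand is therefore read from the interval. The second member had 10, 37 and 2 reads, the third 5, 5 and 2, and the fourth 3, 11 and 1. The remaining 4 had 1 or 2 reads in A1a, 1 to 5 in A2d and 1 in A2h. In A2h no sense member exceeded 2 reads, so each could have been missed at a slightly lower depth. Of the 8, 6 began with T and 5 had A at base 10, and 0 had a 10 nt partner in any list. Of the sense reads, they held 51 of 762 in A1a (6.69%, 5.02 to 8.71%), while A2d had 127 of 1523 (8.34%, 7.0 to 9.84%) and A2h had 10 of 45 (22.2%, 11.2 to 37.1%). The antisense members held 26.6% (23.9 to 29.4%), 28.4% (26.6 to 30.3%) and 37.0% (33.4 to 40.7%) of the antisense reads.

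Shared sequences nearly always matched the authors' Penelope sequence, with an exact match at 1 place or more for 85 of 87 (97.7%, 91.9 to 99.7%). Among sequences of 1 strain 64.0% (61.9 to 66.0%) did, and among those in exactly 2 strains 87.8% (84.1 to 90.8%). The 2 exceptions were the sense sequences at 572 to 597 and 565 to 587. Both carried T580A, which in the right repeat reads T3361A. The same substitution was in the sense sequence at 567 to 592 just outside the rule, with 40 reads in A1a and 24 in A2d, and in the one at 565 to 592, with 18 and 25. It thus recurred in sequences with different ends and in all 3 libraries. In A2h, however, each of the 2 shared sequences that carried it had 1 read, and wrongly assigned reads were not tested for. The rule asks for an identical sequence in 3 libraries, which bears on how often a mismatch is kept. The gap in exact matches also depended on read count. With 1 read in A2d, 61.2% of those of A2d alone matched exactly, against 96.2% of shared ones. With 5 or more reads in A2d it was 94.1% of 17 against 96.9%. With 2 to 4 reads it was 76.4% against 94.4% in A1a, 77.2% against 100% in A2d and 96.6% against 100% in A2h.

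The libraries were multiplexed, and 44 of the 87 had 1 read in A2h, with up to 42 reads in A1a and 65 in A2d. Of these, 5 had 20 or more reads in A1a or A2d. Whether reads assigned to the wrong library contributed was not tested. Without those 5 the antisense share was 91.5% and the share of A2h reads held by the common set 35.4%, while the shares of A1a and A2d reads were 12.8% and 14.7%.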

How the data were processed

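Per the labels' protocols, small RNAs of 23 to 29 nt were gel selected, ligated to adapters, amplified and multiplexed. Per the file headers, the deposited values are raw read counts per distinct sequence matching Penelope, with strand, start, end, length and mismatches. How reads were trimmed and aligned, and to which Penelope copy, is not stated in the labels or headers. Empty lines, 3 in A1a and 2 in A2d were not analysed here. Sequences with 2 places carry the full count on both lines and were counted once. Starts, counted from 0 in the lists, are printed from 1. The element was rebuilt from the reads and their listed mismatches, with 0 conflicting bases. Repeats are the span of sequences with 2 places, and the frame is the longest from ATG. Depth was 1777, 3870 and 748 reads in A1a, A2d and A2h.

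The members and lists of readouts were chosen with earlier results of these data known. Named sequences were the 10 with the highest mean percentage, the 3 most abundant of each list, those with 5 or more reads in every list, all sense ones, and the 3 leading sequences of exactly 2 lists. Others, in end groups or apart between lists, were named after their values were seen. The counting of shared sequences and partners was tested on simulated data. Python 3.11.15, pandas 2.3.3 and SciPy 1.17.1 were used.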

Additional observations from a re-analysis of the deposited data

How the results depend on the processing

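Of 62 values under another setting, 46 lay inside the 95% interval of the value over all 87 sequences (for mean length, 25.5 to 26.1 nt), or, for the number of sequences, differed by less than 1.5 times. With 2 or more reads in every list there were 30 shared sequences, A at base 10 was found in 16.7% on both strands, and the shared reads were 8.55%, 11.3% and 24.3% of A1a, A2d and A2h. Exact matches only gave 23.0%, 24.9% and 40.4%, with reads with mismatches left out of the totals too. The same strand and 5′ end in place of the identical sequence gave 38.9%, 41.9% and 63.6%. Sequences of 1 place gave 17.0% in A2d and, by construction, a repeat share of 0. Weighting by mean percentage gave a repeat share of 26.8%. Leaving out the 5 sequences with 1 read in A2h and 20 or more elsewhere, a choice made after seeing the data, gave 12.8% in A1a and 14.7% in A2d. Strand, base 1 and length kept within their intervals under every setting run. The setting of 23 to 29 nt could not change them, since no shared sequence had 30 nt, and its values are among the 46. No replicate could be left out, since each strain had 1 library. The 748 reads of A2h limit which sequences could be shared.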
